A study of Mus musculus with 12 samples.

Results

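The Fc receptor genes of brain myeloid cells were taken as 6 genes of the 50563 in the count table: the activating receptors Fcgr1, Fcgr3 and Fcgr4, the inhibitory receptor Fcgr2b, the shared signalling chain Fcer1g, and Fcgrt, the heavy chain of the neonatal Fc receptor. They were chosen by name, with earlier results of these data known, and all 6 were found by Ensembl identifier in the GRCm38 annotation. RNA-Seq was measured in whole brain cortex, with 1 library for each of 12 aged E4FAD mice of genotype APOE4+/+, 5FAD-/+, so both groups carried human APOE4 in place of mouse Apoe and the familial Alzheimer's disease transgenes, and no mouse without the transgenes was analysed here. The 7 CTRL mice received vehicle and the 5 DPAn-6 mice received 700 mg/kg of DPAn-6, the omega-6 fatty acid docosapentaenoic acid given as its ethyl ester, by daily oral gavage for 3 weeks. The antioxidants alpha-tocopherol and palmitoyl ascorbic acid were given to both groups. The CTRL group held 2 mice of 12 months and 5 of 14 months, and the DPAn-6 group held 2 of 12 months and 3 of 14 months. Both groups held females and males, but the sex of single mice was not given in the labels. The comparison asks how DPAn-6 bears on inflammatory genes in the cortex of these mice.

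Fc receptors bind the constant part of antibodies. On microglia and macrophages, the activating receptors take up immune complexes and signal through the tyrosine-based activation motif of the Fcer1g chain, which recruits the kinase Syk, whereas the inhibitory receptor Fcgr2b recruits the phosphatase SHIP1 and damps the same signal. The neonatal receptor works inside cells with beta-2-microglobulin, where it protects IgG and albumin from breakdown, and in brain it is also known from endothelium and choroid plexus.

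Of the 6 genes, 4 lie close together on chromosome 1. In GRCm38 coordinates, Fcgr2b (ENSMUSG00000026656) spans 170958617 to 170976547 on the minus strand, Fcgr4 (ENSMUSG00000059089) spans 171018920 to 171029761 on the plus strand, Fcgr3 (ENSMUSG00000059498) spans 171051174 to 171064935 on the minus strand, and Fcer1g (ENSMUSG00000058715) spans 171229572 to 171234365 on the minus strand. The gaps between these neighbours were 42.4 kb, 21.4 kb and 164.6 kb. Fcgr1 (ENSMUSG00000015947) lies apart, on the minus strand of chromosome 3 from 96282909 to 96293969, and Fcgrt (ENSMUSG00000003420) lies on the minus strand of chromosome 7 from 45092990 to 45103851. All 6 are protein coding. Fcgr2b, Fcgr3 and Fcgr4 are paralogs, so reads shared between them are uncertain. Fcgr2b shares 155 exon bases with Gm38204 on the opposite strand, which had 0 counts in every mouse, and no other member shares exon bases with another gene.

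The promoters are shown for the 3 activating receptors because these were the members whose windows held a searched motif. RefSeq windows on GRCm38.p6, from 250 bases before to 50 bases after each transcription start, were found for all 6 genes. The windows were searched on both strands for the core of the PU-box, GAGGAA, read as TTCCTC when it lies on the other strand, which is the recognition sequence of the myeloid factor PU.1, and for the interferon-gamma activated site, TTCNNNGAA. The 2 motifs can share bases where TTC begins both. The PU-box core was in 28.3% of all 32851 windows of this length, and the interferon-gamma activated site was in 8.3%. The 120 bases that precede the start are printed 5′ to 3′ on the gene's strand, with the motif matches in capitals, for Fcgr1 at chr3:96293970-96294089 on the minus strand, for Fcgr3 at chr1:171059404-171059523 on the minus strand, and for Fcgr4 at chr1:171018806-171018925 on the plus strand. The start of this Fcgr3 window lies inside the span of the gene given above.

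Fcgr1: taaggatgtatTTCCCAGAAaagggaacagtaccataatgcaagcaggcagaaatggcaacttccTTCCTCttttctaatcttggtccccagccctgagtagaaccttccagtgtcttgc
Fcgr3: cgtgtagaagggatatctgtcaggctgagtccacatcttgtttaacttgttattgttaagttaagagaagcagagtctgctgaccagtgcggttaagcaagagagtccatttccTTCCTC
Fcgr4: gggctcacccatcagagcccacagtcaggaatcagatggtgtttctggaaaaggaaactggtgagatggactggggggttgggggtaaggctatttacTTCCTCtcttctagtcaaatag

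Fcgr1 held both motifs, TTCCTC from base −55 and TTCCCAGAA from base −109, where −1 is the base before the start. Fcgr3 held TTCCTC at −6 and Fcgr4 at −22, and neither held the interferon-gamma activated site. The windows of Fcgr2b, Fcer1g and Fcgrt held neither motif. These matches are descriptions of the letters only.

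The libraries of CTRL mice held 15339098 to 19500154 counts and those of DPAn-6 mice 15208803 to 26520251 counts, and 15688 genes passed the filter on low counts. CTRL replicate 3, a mouse of 14 months, stood apart. Its deviation from the other libraries had a correlation across genes of −0.58 with the GC content of the transcript and of 0.29 with its length, the largest of the 12 libraries on both, so the values that move most with it are also given without it. The choroid plexus gene Ttr ranged from 107 to 23880 counts in CTRL and from 32 to 391 in DPAn-6, and its part in the results below was not tested beyond a fit with Ttr as covariate. Microglial identity genes were present at a summed level of 889.7 to 1263 CPM (counts scaled to a common library total) in CTRL and 661.4 to 859.8 CPM in DPAn-6 over the 12 genes listed, among them Csf1r, Cx3cr1, P2ry12 and Tmem119. Markers of blood cells that carry Fc receptors were low, and none of them passed the filter on low counts. The 4 monocyte markers summed to at most 1.02 CPM in CTRL and 0.435 CPM in DPAn-6, and the 5 neutrophil markers to 6.79 and 0.543 CPM. The highest sums were 0.256 and 0.109 CPM for the 4 natural killer cell markers and 0.287 and 0.168 CPM for the 3 B cell markers. For the 4 mast cell markers they were 0.117 and 0.0754 CPM, and the mast cell gene Cma1 was at 0 in every mouse.

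Per kb of exon, the signalling chain was the most abundant member and Fcgr4 the least. Mean levels over the 12 mice, in log2 CPM per kb, were 4.43 ± 0.27 (SD) for Fcer1g, 3.98 ± 0.26 for Fcgr3, 2.95 ± 0.40 for Fcgrt, 1.56 ± 0.37 for Fcgr2b, 1.27 ± 0.28 for Fcgr1 and −1.55 ± 0.69 for Fcgr4. Within each mouse, Fcer1g lay above Fcgr3 in 12 of 12 mice, with a mean difference of 0.45 ± 0.10. Fcgr3 lay above Fcgrt in 12 of 12, Fcgrt above Fcgr2b in 11 of 12, with CTRL replicate 3 the exception, and Fcgr1 above Fcgr4 in 12 of 12. The neighbours Fcgr2b and Fcgr1 differed by 0.29 ± 0.27, which is about the spread between mice, and DPAn-6 replicate 3 had them in the other order. The length used was that of all annotated exons of a gene merged. For Fcgr2b this was 5790 bases, where its longest transcript has 3544, and for Fcgr1 it was 2589 bases by both measures. The small gap between these genes therefore depends on the length used, and would be wider with the longest transcript. Fcgr4 had 102 counts in all 12 libraries together, against 6008 for Fcgr3.

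**Figure D1:**
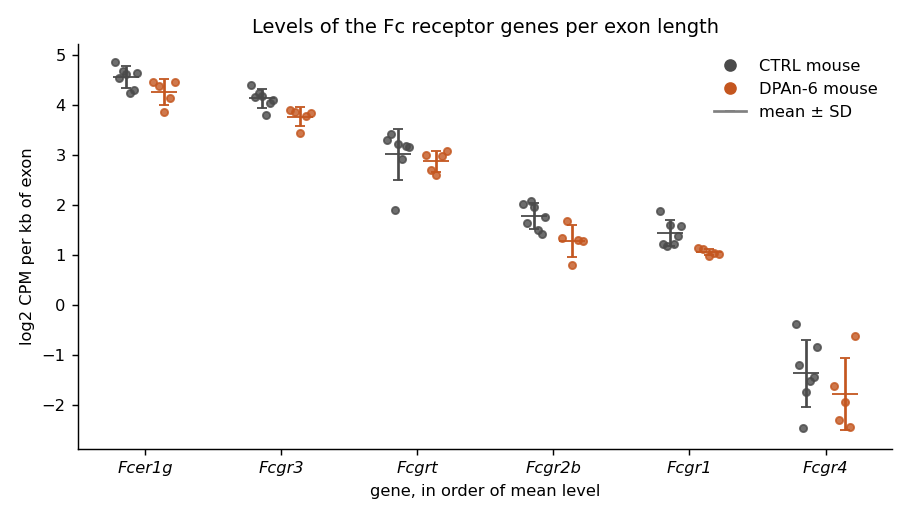
Level of each Fc receptor gene in log2 CPM per kb of exon, with 1 point per mouse (CTRL, n = 7, DPAn-6, n = 5) and the group mean ± SD. The genes are ordered by their mean over all mice, from 4.43 for Fcer1g to −1.55 for Fcgr4, and the low CTRL point of Fcgrt is CTRL replicate 3.

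All 5 members that could be tested had lower values in DPAn-6 than in CTRL mice, and none passed the adjusted threshold of edgeR's quasi-likelihood test. With Benjamini-Hochberg adjustment over 15688 genes, 0 of 5 had an adjusted p below 0.05, where 1.14% of all genes tested were called lower. By unadjusted p, Fcgr1, Fcgr2b, Fcgr3 and Fcer1g, 4 of 5, were below 0.05 and lower, where 9.02% of all genes tested were. DESeq2 called Fcgr1, Fcgr2b and Fcgr3 lower, 3 of 5, where it called 3.16% of all genes lower, and limma-voom called 0. The median log2 fold change was −0.39 over the 5 members and −0.00 over all genes tested, of which 51.3% had lower values. These are values of whole tissue, in which fewer cells and less RNA per cell cannot be told apart.

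Fcgr1, the high-affinity IgG receptor, was the member whose groups did not overlap. It had a lowest, median and highest CTRL level of 2.54, 2.75 and 3.25 log2 CPM (89 to 162 counts), and DPAn-6 replicates 1 to 5 had 2.51, 2.48, 2.34, 2.40 and 2.40 log2 CPM (80 to 139 counts). The highest DPAn-6 value was under the lowest CTRL value, as was so for 1.49% of all genes tested, and the DPAn-6 mice lay close together, at 2.42 ± 0.07 (SD, n = 5) against 2.80 ± 0.26 (SD, n = 7). In edgeR, Fcgr1 had a log2 fold change of −0.42 ± 0.13 (SE) at an adjusted p of 0.119, and two-sided exact permutation of the log2 CPM values gave p = 0.00758, where the smallest p that 7 against 5 mice allow is 0.00126. The highest CTRL values were those of replicates 1, 4 and 7, of which 1 and 7 were the 12-month mice. Without CTRL replicate 3, edgeR gave −0.46 and an adjusted p of 0.0362. In 21 of 23 alternative fits the adjusted p of Fcgr1 was not below 0.05.

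Fcgr3, the low-affinity activating receptor and the most abundant receptor chain that binds IgG at the cell surface here per kb, had a lowest, median and highest CTRL level of 4.59, 4.96 and 5.19 log2 CPM. DPAn-6 replicates 1 to 5 had 4.70, 4.66, 4.24, 4.56 and 4.64 log2 CPM. The groups overlapped through CTRL replicate 5, the lowest CTRL mouse, and 2 of 5 DPAn-6 mice lay under the whole CTRL group. The CTRL mean was 4.93 ± 0.19 (SD, n = 7) and the DPAn-6 mean 4.56 ± 0.19 (SD, n = 5). In edgeR its log2 fold change was −0.39 ± 0.11 (SE), the adjusted p was 0.0864, and the exact permutation p was 0.00884. Its edgeR adjusted p was 0.0403 without CTRL replicate 3 and 0.0490 without CTRL replicate 5. In 19 of 23 alternative fits the adjusted p of Fcgr3 was not below 0.05.

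Fcgr4, an activating receptor that binds mouse IgG2 subclasses, was near the detection limit. CTRL mice had 3 to 16 counts, with a median of 8, and DPAn-6 replicates 1 to 5 had 7, 4, 6, 3 and 21 counts. It did not pass the filter on low counts, and the groups overlapped over almost their whole range, with a CTRL mean of −1.05 ± 0.67 log2 CPM (SD, n = 7) and a DPAn-6 mean of −1.46 ± 0.73 (SD, n = 5). The exact permutation p was 0.319, and the difference of −0.42 ran from −0.71 (without DPAn-6 replicate 5) to −0.25 with each mouse left out.

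Fcgr2b, the inhibitory receptor, had the largest log2 fold change of the tested members over all 12 mice, though not without CTRL replicate 3 (−0.45, against −0.46 for Fcgr1) or with Ttr as covariate (−0.63, against −0.64). Its lowest, median and highest CTRL levels were 3.95, 4.30 and 4.62 log2 CPM. DPAn-6 replicates 1 to 5 had 3.86, 4.21, 3.32, 3.83 and 3.80 log2 CPM. DPAn-6 replicate 2 alone reached into the CTRL range, so 4 of 5 lay under the whole CTRL group, and DPAn-6 replicate 3 was the lowest of the 12. The means were 4.30 ± 0.26 (SD, n = 7) and 3.80 ± 0.32 (SD, n = 5), edgeR gave a log2 fold change of −0.51 ± 0.15 (SE) at an adjusted p of 0.112, and the exact permutation p was 0.0139.

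Fcer1g, the chain that carries the signal of the activating receptors, had a smaller difference. Its lowest, median and highest CTRL levels were 4.03, 4.43 and 4.65 log2 CPM, and DPAn-6 replicates 1 to 5 had 4.26, 4.19, 3.66, 3.94 and 4.27 log2 CPM. The 2 DPAn-6 mice of 12 months, replicates 3 and 4, lay under the whole CTRL group, and the 3 of 14 months lay within the CTRL range. In edgeR the log2 fold change was −0.31 ± 0.13 (SE) and the adjusted p was 0.272. The exact permutation p of 0.0593 missed 0.05 over all mice and was below it without CTRL replicate 5 or 6 (0.0238 and 0.0390) or without DPAn-6 replicate 1 or 5 (0.0485 and 0.0455). With each of the other 8 mice left out it was 0.0697 to 0.152, and the difference of mean log2 CPM moved from −0.29 to −0.19 without DPAn-6 replicate 3.

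Of the tested members, Fcgrt, the neonatal Fc receptor, had the smallest edgeR log2 fold change over all 12 mice and the widest CTRL spread. Both rest on CTRL replicate 3. Fcer1g had the smaller fold change without that mouse (−0.28) and in the 14-month mice only (−0.07, against −0.10). The lowest, median and highest CTRL levels of Fcgrt were 2.97, 4.24 and 4.48 log2 CPM. DPAn-6 replicates 1 to 5 had 4.06, 3.78, 3.67, 4.05 and 4.15 log2 CPM. CTRL replicate 3 set the low end, with 120 counts, and the next CTRL mouse, replicate 5, had 3.99. The means were 4.08 ± 0.51 (SD, n = 7) and 3.94 ± 0.20 (SD, n = 5), with an edgeR log2 fold change of −0.22 ± 0.19 (SE), an adjusted p of 0.672 and an exact permutation p of 0.635. Without CTRL replicate 3, edgeR gave −0.34 and an adjusted p of 0.0610, and the difference of mean log2 CPM was −0.33 with an exact permutation p of 0.0152. The transcript of Fcgrt has 55.9% GC, the highest of the 6 members, against a median of 49.8% over genes with a mean of at least 1 CPM. Once the dependence of each library on length and GC was taken out, an alternative chosen after seeing the data, the edgeR log2 fold change was −0.21.

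**Figure D2:**
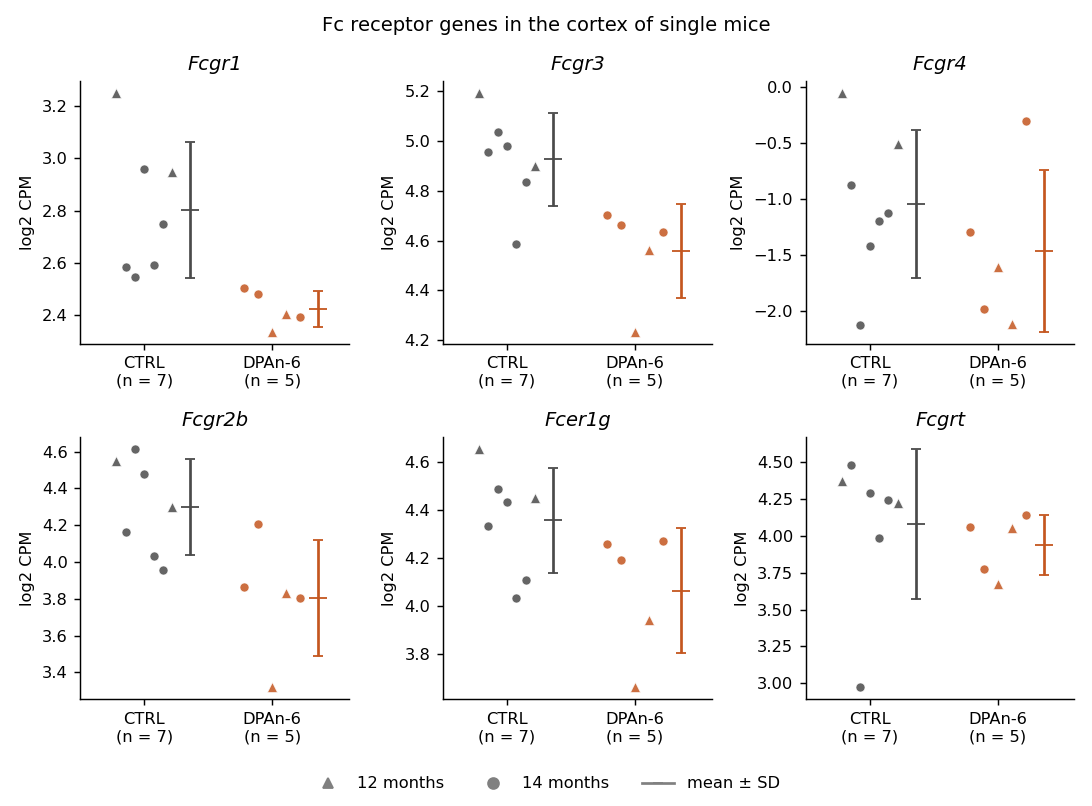
Level of each Fc receptor gene in log2 CPM, with 1 point per mouse (triangles for 12 months, circles for 14 months) and the group mean ± SD, on a separate axis for each gene. For Fcgr1 the 5 DPAn-6 points lie under every CTRL point, 4 of 5 do for Fcgr2b, and CTRL replicate 3 lies far below the other mice for Fcgrt.

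The differences were wider in the 12-month mice than in the 14-month mice for every member, though the difference between the ages did not pass the adjusted test. In mean log2 CPM, DPAn-6 minus CTRL was −0.73 at 12 months and −0.22 at 14 months for Fcgr1, −0.85 and −0.29 for Fcgr2b, −0.65 and −0.21 for Fcgr3, −0.75 and −0.04 for Fcer1g, −0.43 and −0.00 for Fcgrt, and −1.59 and 0.16 for Fcgr4. The 12-month values rest on 2 mice a group. Fcer1g had the largest age interaction of the members in edgeR, 0.67 on the log2 scale (standard error 0.22), with an unadjusted p of 0.00970 and an adjusted p of 0.905. The interaction had an unadjusted p below 0.05 in 1 of 5 members and in 4.26% of all genes tested, and an adjusted p below 0.05 in 0 of 5 members and in 0.00637% of all genes tested, which is 1 gene. Among the 14-month mice only, 5 CTRL against 3 DPAn-6, the edgeR log2 fold changes were −0.26 for Fcgr1, −0.33 for Fcgr2b, −0.24 for Fcgr3, −0.07 for Fcer1g and −0.10 for Fcgrt, and 0 of 5 had an unadjusted p below 0.05. The exact permutation test of these 8 mice, which cannot go below 0.0179, gave 0.0714 for Fcgr1, 0.196 for Fcgr2b and 0.125 for Fcgr3.

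**Figure D3:**
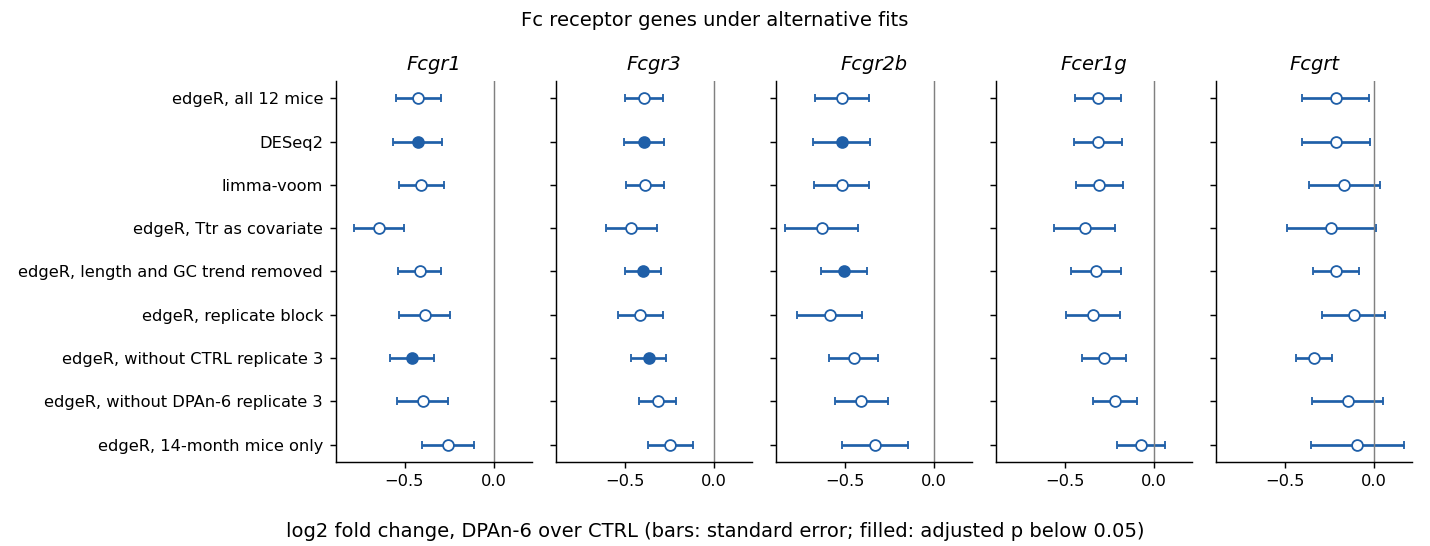
The edgeR log2 fold change of DPAn-6 over CTRL for the 5 tested Fc receptor genes, with the value under 8 other fits below the fit of all 12 mice. Bars are standard errors and filled points have an adjusted p below 0.05. Every point lies below 0, and the points of the 14-month mice lie nearest to 0, from −0.33 for Fcgr2b to −0.07 for Fcer1g.

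The balance of the inhibitory to the activating receptors was compared within mice. The log2 ratio of Fcgr2b to Fcgr1 was 1.497 ± 0.28 for CTRL (SD, n = 7) and 1.38 ± 0.27 for DPAn-6 (SD, n = 5), a difference of −0.12 (exact permutation p = 0.506). Leaving out CTRL replicate 3 made it −0.020, and leaving out DPAn-6 replicate 3 made it −0.017. The ratio of Fcgr2b to Fcgr3 was −0.63 ± 0.16 in CTRL and −0.75 ± 0.18 in DPAn-6, a difference of −0.13 (exact permutation p = 0.218, and p = 0.0485 with a difference of −0.20 without DPAn-6 replicate 2). The ratio of Fcgr2b to Fcgr4 was 5.35 ± 0.74 in CTRL and 5.27 ± 0.84 in DPAn-6, a difference of −0.08 (exact permutation p = 0.876) that rests on the few counts of Fcgr4 and was 0.16 without CTRL replicate 3. These differences were smaller than the spread between mice.

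The genes that mark microglia were lower in the same mice, and over all 12 mice the ratios of the members to them overlapped between the groups. The mean log2 CPM over the 12 microglial identity genes was 5.82 ± 0.17 for CTRL (SD, n = 7) and 5.36 ± 0.14 for DPAn-6 (SD, n = 5). The groups did not overlap, and the exact permutation p was 0.00126, the smallest possible. The list was already known to be lower from earlier results of these data, so this p is no independent support. All 12 genes had lower values, where 51.3% of all genes tested did. The smallest differences were those of Cx3cr1 (log2 fold change −0.05, edgeR adjusted p = 0.866) and Siglech (−0.33). Of the 12 genes, 4 were called lower, where 1.14% of all genes tested were. Olfml3 (−1.19), Tmem119 (−0.77), Selplg (−0.64) and Csf1r (−0.50) fell with an edgeR adjusted p below 0.05. Of 23 alternative fits, that of Csf1r was not below 0.05 in 11 and that of Tmem119 in 13. Relative to this mean, the log2 ratio differed between DPAn-6 and CTRL by 0.08 for Fcgr1 (exact permutation p = 0.499), −0.03 for Fcgr2b (p = 0.729, exact permutation), 0.09 for Fcgr3 (p = 0.0770, exact permutation) and 0.17 for Fcer1g (p = 0.0821, exact permutation). It differed by 0.04 for Fcgr4 (p = 0.931, exact permutation) and 0.32 for Fcgrt (p = 0.236, exact permutation). Without CTRL replicate 3 it was 0.12 for Fcgrt, 0.023 for Fcgr1, 0.0030 for Fcgr2b and −0.15 for Fcgr4. With the 3 ratios of Fcgr2b, 9 ratios were compared and 0 had an unadjusted p below 0.05 over all mice, so 0 passed after adjustment. The ratio of Fcgr3 was higher in DPAn-6 with p = 0.0212 (exact permutation) without DPAn-6 replicate 3. That of Fcer1g had exact permutation p-values of 0.0303 without CTRL replicate 7, 0.0364 without DPAn-6 replicate 3 and 0.0394 without DPAn-6 replicate 4. In the 14-month mice only, the ratio was higher in DPAn-6 by 0.16 for Fcgr3 and 0.34 for Fcer1g. Both had an unadjusted exact permutation p of 0.0179, the smallest that these 8 mice allow. For Fcgr3 the nearest values of the groups were −0.860 in DPAn-6 replicate 2 and −0.868 in CTRL replicate 6. The share of all genes that reach this p in these mice was not computed.

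**Figure D4:**
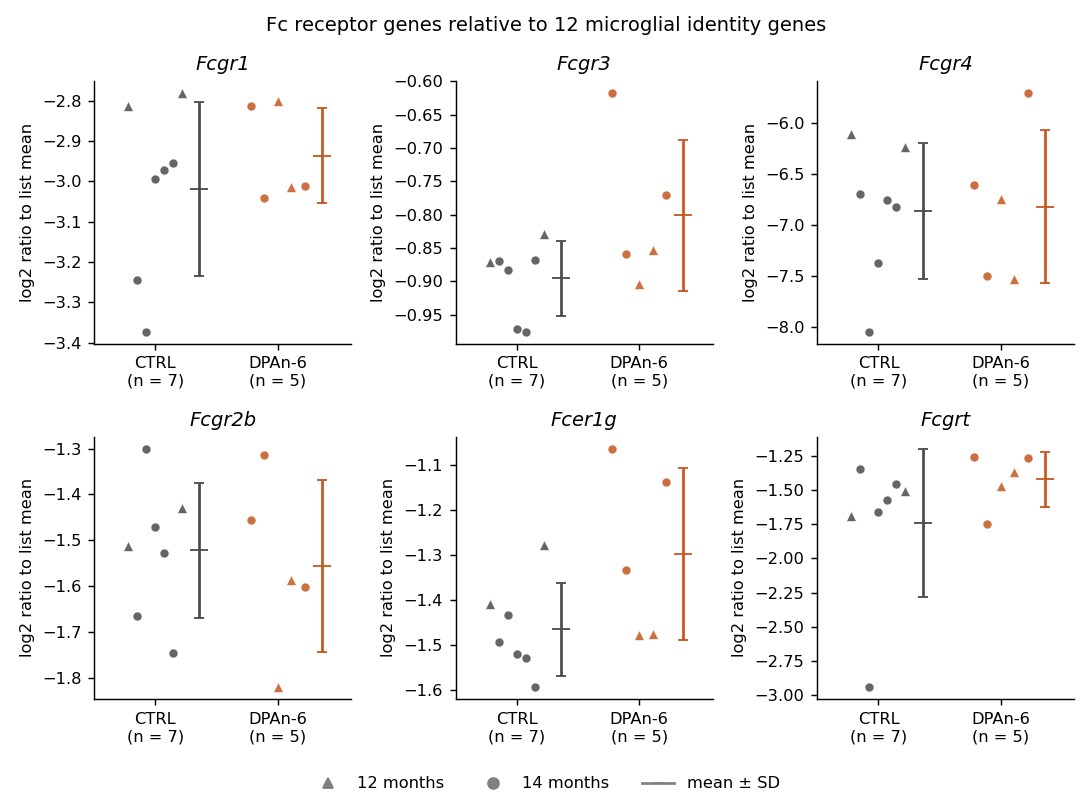
Log2 ratio of each Fc receptor gene to the mean of 12 microglial identity genes, with 1 point per mouse (triangles for 12 months, circles for 14 months) and the group mean ± SD, on a separate axis for each gene. The groups overlap for all 6 genes, with differences of DPAn-6 minus CTRL from −0.03 for Fcgr2b to 0.32 for Fcgrt.

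Border macrophages, the macrophages of the meninges and vessels, also carry Fc receptors, and their markers were lower in the DPAn-6 mice. Their 7 markers summed to 11.3 to 17.0 CPM in CTRL and 4.94 to 7.14 CPM in DPAn-6. Lower values were found for 5 of 5 tested, and for 51.3% of all genes tested. Of these, 3 had an edgeR adjusted p below 0.05, where 1.14% of all genes tested were called lower. The mannose receptor Mrc1 fell with a log2 fold change of −1.29 (edgeR adjusted p = 0.00260) and F13a1 with −1.36 (edgeR adjusted p = 0.00850). The haemoglobin receptor Cd163 fell with −1.29 (edgeR adjusted p = 0.0292). Lyve1 at −0.77 and Cbr2 at −0.92 did not pass. The adjusted p of Cd163 was not below 0.05 in 10 of 23 alternative fits. The part of these cells in the values of the Fc receptors was not tested. Of the 5 endothelial markers, 0 passed the adjusted test of edgeR and 1, Flt1, had an unadjusted p below 0.05 (log2 fold change −0.19), and their summed level was 245.1 to 287.2 CPM in CTRL and 236.4 to 268.5 CPM in DPAn-6. The 4 neuronal markers ranged from 5312 to 7531 CPM in CTRL and 6146 to 6870 CPM in DPAn-6, and the 4 haemoglobin genes from 7.39 to 21.0 CPM and from 5.13 to 29.3 CPM. The 4 choroid plexus markers, whose cells are known to hold the neonatal receptor, ranged from 10.5 to 1629 CPM in CTRL and from 6.22 to 19.7 CPM in DPAn-6. With Ttr as covariate the edgeR log2 fold changes were −0.64 for Fcgr1, −0.63 for Fcgr2b, −0.46 for Fcgr3, −0.39 for Fcer1g and −0.24 for Fcgrt, and 0 of 5 had an adjusted p below 0.05.

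Downstream of the activating receptors, 18 signalling genes were tested and 17 had lower values, where 51.3% of all genes tested did. Of the 18 genes, 0 had an edgeR adjusted p below 0.05. Their log2 fold changes had a median of −0.26. Of the 18, 7 were lower with an unadjusted p below 0.05 in edgeR, where 9.02% of all genes tested were. The adaptor Lat2 had the lowest log2 fold change, −0.70 (edgeR adjusted p = 0.0681), then the adaptor Lcp2, −0.61 (edgeR adjusted p = 0.183), and the kinase genes Pik3cd and Fyn lay at −0.04 and 0.04. Syk, the kinase that Fcer1g recruits, had −0.33 (standard error 0.13, edgeR adjusted p = 0.234). DESeq2 called 4 of the 18 lower, where it called 3.16% of all genes tested lower. Without CTRL replicate 3, edgeR also called 4 of the 18 lower, beside 622 of all 15616 genes tested in that fit.

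On the inhibitory side, 8 of 8 genes tested had lower values, with a median of −0.18, where 51.3% of all genes tested had lower values. With Ttr as covariate, 5 of the 8 had lower values. Inpp5d, which encodes the phosphatase SHIP1 that Fcgr2b recruits, had a lowest, median and highest CTRL level of 5.18, 5.25 and 5.72 log2 CPM, and DPAn-6 replicates 1 to 5 had 5.08, 5.14, 4.75, 4.80 and 5.04 log2 CPM. The groups did not overlap, with DPAn-6 lower, as was so for 1.49% of all genes tested. Inpp5d fell by 0.47 ± 0.11 (log2 fold change ± SE, edgeR adjusted p = 0.0484), close to the threshold, and its adjusted p was above 0.05 in 18 of 23 alternative fits, up to 0.168 with a mouse left out (DPAn-6 replicate 3) and 0.572 in the 14-month mice only. The phosphatase gene Ptpn6 lay at −0.30 and Cblb and Csk at −0.04 and −0.02.

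**Figure D5:**
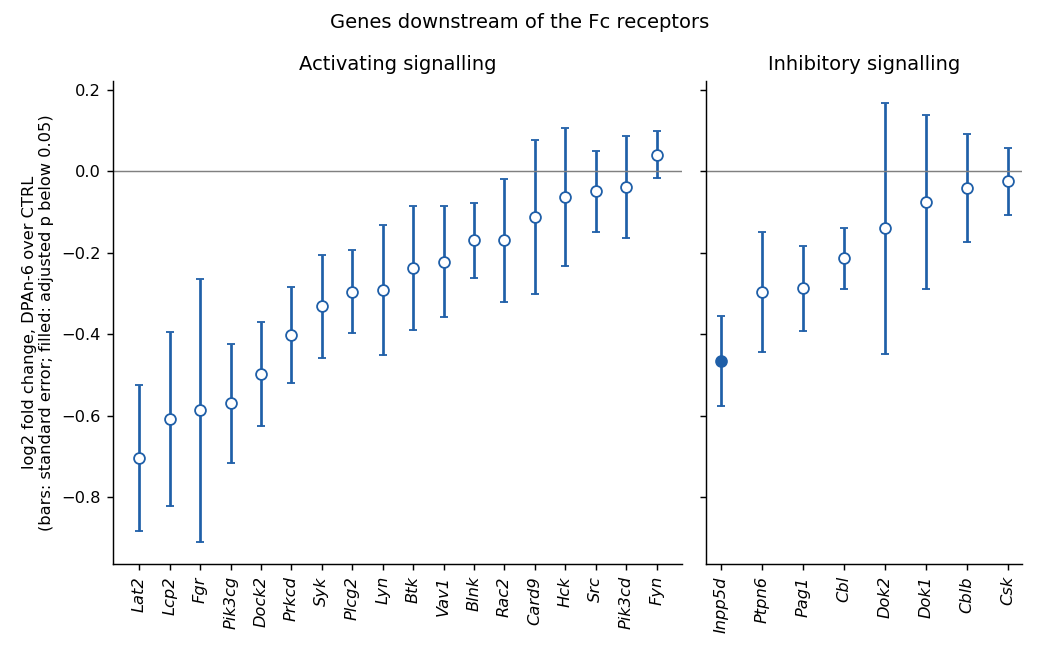
The edgeR log2 fold change of DPAn-6 over CTRL for 18 activating and 8 inhibitory signalling genes, ordered by value within each list. Bars are standard errors and filled points have an adjusted p below 0.05. Inpp5d is the filled point, and Fyn alone lies above 0.

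Of the NADPH oxidase, the complex that makes superoxide after Fc receptor engagement, Ncf1 passed the test. Ncf1, a cytosolic organizer of the complex, had a lowest, median and highest CTRL level of 4.23, 4.58 and 4.80 log2 CPM, and DPAn-6 replicates 1 to 5 had 4.0, 3.99, 3.77, 3.88 and 3.77 log2 CPM. Every DPAn-6 value was under every CTRL value, as was so for 1.49% of all genes tested. Ncf1 fell by 0.68 ± 0.09 (log2 fold change ± SE, edgeR adjusted p = 0.00336). Its adjusted p was 0.0708 with Ttr as covariate and 0.150 in the 14-month mice only. The membrane subunit Cybb lay at −0.49, with a standard error of 0.29, Cyba at −0.38 and Ncf4 at −0.06, and these did not pass the test.

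The partner chains had lower values that did not pass the test. The adaptor Tyrobp, a relative of Fcer1g in function, had a log2 fold change of −0.46 (edgeR adjusted p = 0.319) and B2m, the partner of Fcgrt, had −0.48 (edgeR adjusted p = 0.354). In CTRL replicate 3, Tyrobp was the lowest of the 12 mice at 4.90 log2 CPM and B2m the highest at 8.62. Without that mouse the edgeR log2 fold change of Tyrobp was −0.57, with an adjusted p below 0.05, and that of B2m was −0.21, which did not pass. Of the other 11 Fc receptor and Fc receptor-like genes, 3 had enough counts to test, 0 had an adjusted p below 0.05 in edgeR, DESeq2 or limma-voom, and 1, Fcrls, had an unadjusted p below 0.05. These were Fcrls at −0.52 (edgeR adjusted p = 0.296), the cytosolic antibody receptor Trim21 at −0.06 and Fcrlb at 0.23, and Fcer1a and Fcrl5 had 0 counts in every mouse.

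Among the immunoglobulin constant genes, which encode the ligands, 4 of 8 were tested and Ighg2c passed. Ighg2c, the heavy chain of IgG2c, had 40 to 127 counts in CTRL mice. DPAn-6 replicates 1 to 5 had 2, 12, 1, 18 and 6 counts. The groups did not overlap, with DPAn-6 lower, where this held for 1.49% of all genes tested. Ighg2c fell by 3.16 ± 0.48 (log2 fold change ± SE, edgeR adjusted p = 0.00551), though reads shared with near-identical heavy chain genes are uncertain. Its adjusted p stayed below 0.05 in all 23 alternative fits, with log2 fold changes from −3.83 to −2.87. Ighm lay at −0.31 (edgeR adjusted p = 0.305), Igkc at −0.11 and Jchain at 0.32, and these did not pass the test.

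Across mice, Fcgr3 and Fcer1g varied together. After each group was centred on its mean, their Pearson r over 12 mice was 0.93, which placed Fcer1g at rank 6 of 13252 genes by likeness to Fcgr3 and Fcgr3 at rank 4 by likeness to Fcer1g. Fcgr2b had an r of 0.83 with Fcgr3 and 0.84 with Fcer1g. Fcgr1 was less like them, with an r of 0.40 with Fcgr2b, 0.53 with Fcgr3 and 0.54 with Fcer1g, or 0.67, 0.70 and 0.70 without CTRL replicate 3. Fcgrt had an r of 0.06 with Fcgr3 and 0.04 with Fcer1g, and 0.74 and 0.63 without CTRL replicate 3. The genes most like each member were Leprot (0.95), Bud31 (0.89) and Cers2 (0.88) for Fcgr1, Pros1 (0.97), Cd84 (0.95) and Ptprc (0.94) for Fcgr2b, and Trim25 (0.96), Ctss (0.96) and Cd9 (0.95) for Fcgr3. They were Ctss (0.95), Laptm5 (0.95) and Irgm1 (0.94) for Fcer1g, and Med11 (0.99), 2810410L24Rik (0.98) and Ech1 (0.98) for Fcgrt. The r values are given without a test, and mice share library depth and composition.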

How the data were processed

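Cortex RNA of 12 E4FAD mice (7 CTRL, 5 DPAn-6) was sequenced, with each library from a separate mouse. The authors prepared poly(A)-selected libraries, aligned reads with STAR (2.5.3a in the submitters' processing notes) to GRCm38 and deposited raw counts per gene, with no normalization. STAR's gene counting uses uniquely mapped reads, so reads shared by paralogs are lost, and the strand setting is not given in the sources used here.

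Here, edgeR 4.0.16 (R 4.3.3, TMM, filterByExpr, glmQLFTest) was run on the counts as deposited, with Benjamini-Hochberg adjustment. Single values, as log2 CPM with a pseudocount of 0.5 counts, were compared by two-sided exact permutation of the difference of means over all 792 splits. DESeq2 1.42.0, limma-voom 3.58.1 (the method the study names), library totals without TMM, no filter, at least 1 CPM in 5 mice, age or Ttr as covariate, 14-month mice, a replicate block and each mouse left out were alternatives. The length and GC trend removed, and replicates 1 to 5 with no block, were added after seeing the data. Fits were tested on simulated data. Some results are not reported here. GENCODE M21 matched 50339 of 50563 gene identifiers. The 6 members and all lists were chosen with earlier results of these data known. Named genes are the members, list genes with an adjusted p below 0.05, the 2 highest and 2 lowest log2 fold changes of a list, the 3 genes most like each member (mean log2 CPM of at least 1), and a few list genes chosen after their values were seen: Syk, Tyrobp, Ptpn6, Cyba, Cybb, Ncf4, Lyve1, Cbr2 and Ighm. The labels do not say whether mice with the same replicate number were paired. Of 5 such pairs, 1 had a correlation of deviations over 0.1, from −0.15 to 0.27, which does not settle it.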

Additional observations from a re-analysis of the deposited data

Results flagged for a closer look

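In 3 of 32 groups of values examined, 1 mouse lay farther from the other 6 of its group than Dixon's 95% critical value allows, where chance gives about 1 in 20 groups, and in all 3 the mouse was CTRL replicate 3. Its Fcgrt level was 2.97 log2 CPM, its log2 ratio of Fcgr2b to Fcgr1 was 2.07, and its log2 ratio of Fcgrt to the microglial identity genes was −2.94.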

How the results depend on the processing

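The 5 tested members had negative log2 fold changes in all 23 alternative fits. The number of members with an adjusted p below 0.05 was 0 in edgeR, 3 with DESeq2, 2 with the length and GC trend removed (Fcgr2b and Fcgr3), and from 0 to 2 with each mouse left out. Over all genes the number was 243, against 696 with DESeq2, 514 with the length and GC trend removed, 9 in the 14-month mice only, 17 with Ttr as covariate, 148 in replicates 1 to 5 with no replicate block and 69 with the replicate block, and from 64 (without DPAn-6 replicate 3) to 953 (without CTRL replicate 3) with each mouse left out. Under the replicate block, Fcgr2b had a log2 fold change of −0.58 (edgeR adjusted p = 0.239) and 0 members had an adjusted p below 0.05. In the 14-month mice only, the difference of mean log2 CPM of Fcgr4 was 0.16, the log2 ratio of Fcgr2b to the microglial genes differed by 0.084, that of Fcgr3 by 0.16 and that of Fcer1g by 0.34. With each mouse left out, the difference ranged from −0.20 to −0.017 for the ratio of Fcgr2b to Fcgr1, from −0.20 to −0.088 for that to Fcgr3 and from −0.31 to 0.21 for that to Fcgr4. For ratios to the microglial genes it ranged from 0.023 to 0.12 for Fcgr1, 0.12 to 0.40 for Fcgrt, −0.094 to 0.032 for Fcgr2b, 0.049 to 0.12 for Fcgr3, −0.24 to 0.22 for Fcgr4 and 0.11 to 0.21 for Fcer1g. The causes were not tested. Depth limits Fcgr4, with 3 to 21 counts per mouse.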
